A study of Mus musculus with 15 samples.

Results

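The 9 genes described here are Retnla, Chil1, Chil3, Chil4, Clec10a, Mgl2, Pdcd1lg2, Ear2 and Tgm2, which are used as marks of alternatively activated mouse macrophages or belong to the chitinase-like genes. They were chosen by name for that role, with earlier results of these data known, and they are 9 of the 55487 genes in the count table. All 9 had at least 10 counts in at least 5 of the 15 libraries and so were among the 19006 genes tested, although Chil3 and Chil4 reached that minimum in the isotype group alone. The series measured poly(A) RNA of whole conjunctiva from a mouse model of allergic conjunctivitis, as paired reads from 15 libraries in 3 groups of 5. Every mouse was a female wild-type BALB/c (written BALC/c in the labels) 9 to 12 weeks old, sensitized through the skin with MC903, a vitamin D analog, at 2.5 nmol per day for 7 days together with ovalbumin (OVA). The PBS group then received PBS on the eye for 7 days, up to day 24, and the labels name no antibody for it. The isotype group received a daily eye drop with 250 µg of OVA over the same days, and 25 mg/kg of the control antibody REGN2390-L1. The anti-IL-4Rα group received the same OVA challenge with 25 mg/kg of REGN1103, an antibody to the IL-4 receptor α chain. By the study's methods the antibodies were injected into the abdomen, on days that began before the eye challenge and ran into it. The 15 libraries held 48622246 to 87745024 counts each, with 48622246 to 67453932 in PBS, 48657048 to 87745024 in isotype and 50432495 to 71637073 in anti-IL-4Rα. The titles give each of the 15 libraries its own mouse code, with an ending whose meaning is not stated.

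IL-4 and IL-13 both signal through the IL-4 receptor α chain and the transcription factor STAT6, and macrophages that receive this signal take on the state called alternative activation. In mice that state is recognized by a set of genes with unrelated products: secreted resistin-like and chitinase-like proteins, galactose-binding lectins, a ligand of PD-1, a secreted ribonuclease and a protein-crosslinking enzyme. Many of these genes are also made by epithelial cells, granulocytes or dendritic cells in allergic tissue, and in whole tissue the cell of origin of their RNA is not measured.

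The macrophage label was first checked against 11 macrophage marker genes, and all 11 were counted in all 15 libraries. Their levels were summed as CPM, the counts of a gene for each 1000000 counts of all genes tested after scaling between libraries. The summed level was 557, 531.5, 568.5, 534 and 543 CPM in PBS replicates 1 to 5. It was 609, 704, 1035, 793 and 1105 CPM in isotype replicates 1 to 5. It was 819, 858, 1036, 693 and 806 CPM in the anti-IL-4Rα replicates. All isotype and all anti-IL-4Rα libraries lay above all PBS libraries, and the isotype and anti-IL-4Rα libraries overlapped. The mean log2 difference from PBS was 0.60 for isotype (exact permutation p = 0.00794, adjusted p = 0.0294) and 0.61 for anti-IL-4Rα (exact permutation p = 0.00794, adjusted p = 0.0294). Between anti-IL-4Rα and isotype it was 0.01 (exact permutation p = 0.929, adjusted p = 0.929). These two-sided exact tests regroup the 10 libraries of a comparison in every possible way, 0.00794 is the smallest p they can give, and the adjustment covers 63 such tests. The largest part of the sum was Lyz2, which averaged 270.4 ± 64.95 CPM in isotype and 361 ± 72.8 CPM in anti-IL-4Rα (SD, n = 5; log2 fold change 0.42, adjusted p = 0.0864), while the median log2 fold change of the 11 markers was -0.31. As a mean of log2 levels, which gives each marker the same weight, the difference was -0.15 (exact permutation p = 0.349). The ratios to this sum given below carry more of Lyz2 than of any other marker. Since the sum rose by 0.60 with OVA and 0.61 in anti-IL-4Rα against PBS, an unchanged gene falls by about that much in the ratio. In whole tissue, fewer cells of a type and less RNA per cell cannot be told apart. Per kilobase of all exons of a gene, the length used for every CPM per kb value, the most abundant macrophage marker, Lyz2, averaged 215 CPM per kb over the 15 libraries, against 2456 CPM per kb for the epithelial keratin Krt5, and the part of macrophage RNA in a library was not measured.

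**Figure D1:**
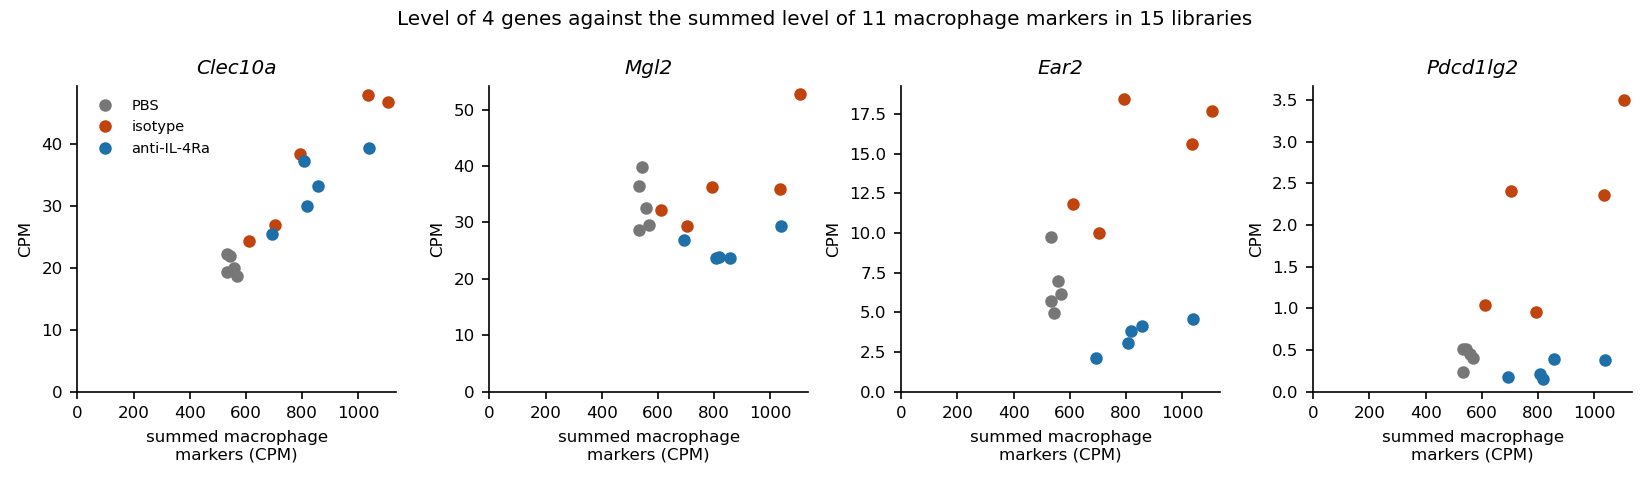
Levels of Clec10a, Mgl2, Ear2 and Pdcd1lg2 in CPM (vertical axes) against the summed level of the 11 macrophage markers in CPM (horizontal axes), with 1 point for each of the 15 libraries, colored by group. Clec10a lay along a line with the markers (Pearson r 0.95 on the log2 scale), while at marker levels that isotype also reached the anti-IL-4Rα libraries held at most 4.59 CPM of Ear2 and 0.392 CPM of Pdcd1lg2.

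The comparison of isotype against PBS, called "with OVA" for short, differs in the OVA challenge and, as far as the labels tell, also in the control antibody, and the 2 cannot be told apart. With OVA, 6 of the 9 genes rose: Chil4, Chil3, Pdcd1lg2, Retnla, Ear2 and Clec10a. None of the 9 fell in that comparison by edgeR's quasi-likelihood test, at an adjusted p under 0.05 after Benjamini-Hochberg adjustment over all genes tested, nor at an unadjusted p under 0.05 or by DESeq2. Over all 19006 genes, 9.53% rose and 7.49% fell. For 5 of the 6, all isotype libraries exceeded all PBS libraries, as they did for 6.85% of all genes, while 5.43% of all genes had every isotype library below, which none of the 9 had. The median log2 fold change of the 9 genes was 1.13, and that of all genes was -0.01. With the antibody, anti-IL-4Rα against isotype, 5 of the 9 fell: Chil4, Chil3, Pdcd1lg2, Ear2 and Mgl2. None of the 9 rose there by edgeR, at an unadjusted p under 0.05 or by DESeq2, and over all genes 8.13% fell and 6.73% rose. For 4 of those 5, every anti-IL-4Rα library lay below every isotype library, as did 4.96% of all genes, and 2.35% of all genes lay wholly above. The median of the 9 genes was -0.67 and that of all genes 0.01. Chil3 and Chil4 were tested only because of their isotype counts, so being highest in isotype was largely fixed by the filter. They count in the tallies and medians above. Apart from them, Pdcd1lg2, Retnla, Ear2 and Clec10a rose with OVA, and Pdcd1lg2, Ear2 and Mgl2 fell with the antibody. With no filter on low counts Chil3 and Chil4 were still called in both comparisons. In fits without 1 library, the genes called over all ranged from 1889 to 3959 with OVA and 895 to 4203 with the antibody.

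Anti-IL-4Rα against PBS compares challenged, treated eyes with unchallenged eyes, and there 1 of the 9 genes was higher (Clec10a) and 1 was lower (Ear2). Of 10 alternative analyses, described at the end, 3 called Clec10a and 4 called Ear2 in this comparison. Of the 10, 1 was chosen after seeing the data. The 4 that called Ear2 include a scaling of all genes to the macrophage markers, under which 13668 genes were called. Over all genes 2.28% were higher and 1.44% lower, with 2.98% wholly above and 3.12% wholly below. The called shares rest on 707 genes, a number that ranged from 83 to 2015 in fits without 1 library. Both Clec10a and Ear2 separated the groups without overlap. The median of the 9 genes was -0.12, or 0.07 with Chil4 held at its counting floor, and that of all genes was -0.00. The 3 comparisons share libraries pairwise, so their results for a gene are set side by side below and not combined. Chil3, Chil4, Pdcd1lg2 and Ear2 both rose with OVA and fell with the antibody. Retnla and Clec10a passed the test against PBS and not against anti-IL-4Rα. Mgl2 passed it against isotype under the antibody and not with OVA, and Chil1 and Tgm2 passed in neither. The genes around the members are described below by 22 lists. In 75 cases a list had no edgeR call in a direction of a comparison, and 29 of these 75 held genes at an unadjusted p under 0.05 (51 entries), 13 of them with a DESeq2 call (15 entries).

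**Figure D2:**
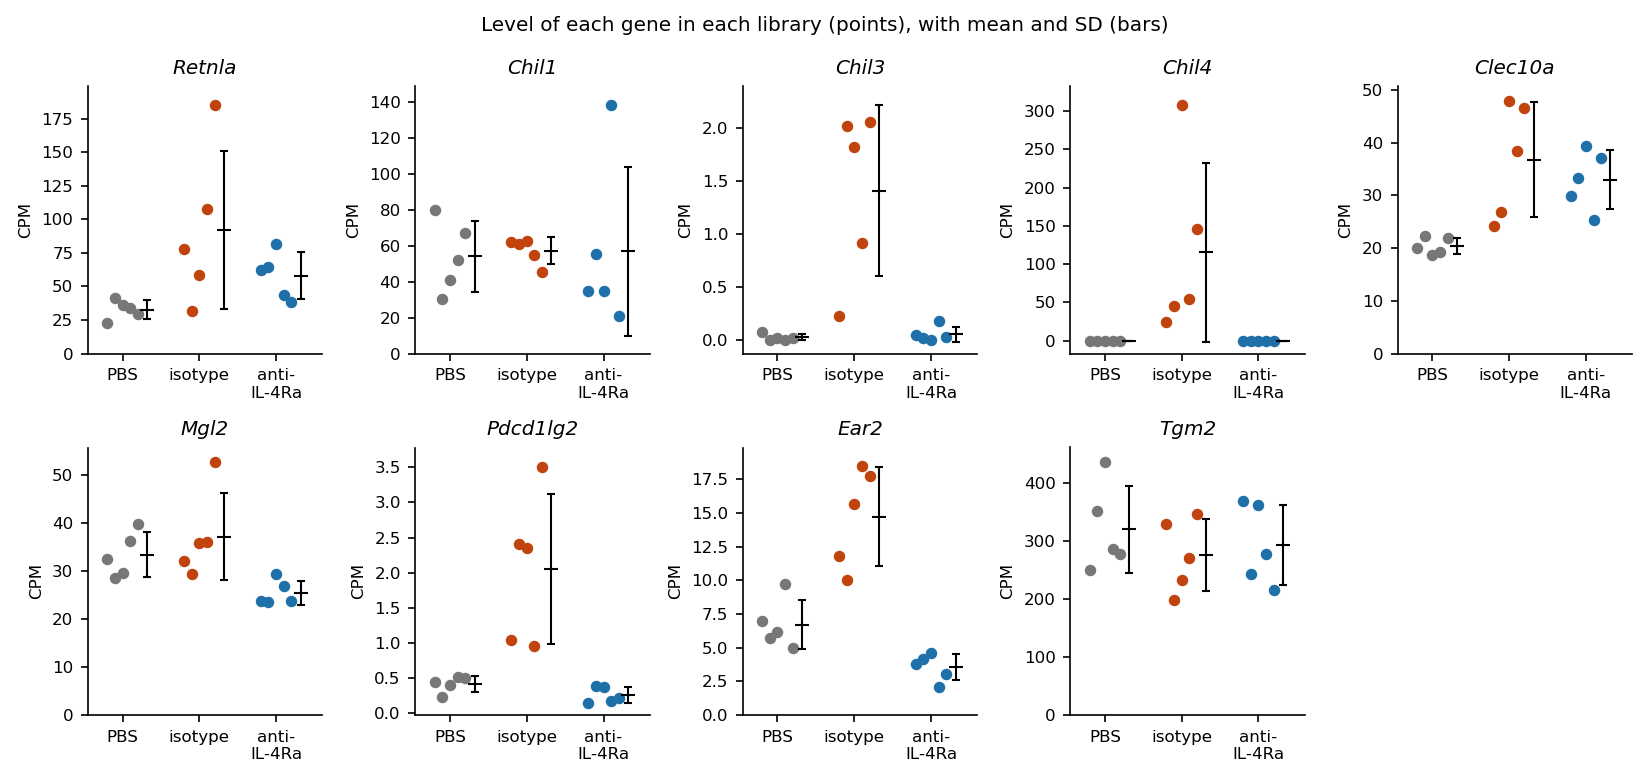
Level of each of the 9 genes in CPM (vertical axis, with its own scale in each panel) in the 5 libraries of PBS, isotype and anti-IL-4Rα. Points are single libraries in order of replicate number, and bars give the group mean ± SD. Chil4 reached 24.2 to 308 CPM in isotype and at most 0.0687 CPM in the other libraries.

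Chil3 and Chil4 encode the chitinase-like lectins Ym1 and Ym2, secreted proteins that resemble chitinases but do not cleave chitin. Chil3 (ENSMUSG00000040809, GRCm38 chr3:106147554-106167564, minus strand) and Chil4 (ENSMUSG00000063779, chr3:106201490-106219507, minus strand) lie 33925 bases apart. Chil4 was counted 5, 2, 0, 2 and 0 times in PBS replicates 1 to 5. In the isotype replicates it was counted 1183, 4467, 18282, 3156 and 8061 times, which is 24.2, 45.7, 308, 55.1 and 146 CPM. In the anti-IL-4Rα replicates it was counted 0, 1, 0, 0 and 1 times. Every isotype library held over 1000 counts and no other library held more than 5, so the groups were far apart, with isotype replicate 3 the highest and isotype replicate 1 the lowest of the 5 isotype libraries. A count of 0 allows up to 3 counts, or 0.0437 to 0.0741 CPM in the 5 libraries that held 0 of Chil4.

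Pooled over libraries, Chil4 was 3644-fold higher in isotype than in PBS (35149 against 9 counts, 95% Clopper-Pearson interval 1920 to 7971). It was 14600-fold (interval 4041 to 120600) higher in isotype than in anti-IL-4Rα, where 2 counts remained among 5 libraries. Intervals and floors cover counting error only. The edgeR test gave adjusted p = 9.6e-05 for the first of these differences and adjusted p = 2.0e-05 for the second. Chil4, like Chil3, was tested only because of its isotype counts, which these p-values do not take into account. Single libraries weighed on the size of these ratios, which divide by very few counts. Without isotype replicate 3 they were 2149 (interval 1132 to 4701) and 8610 (interval 2383 to 71110), and without PBS replicate 1 the first was 6194 (interval 2419 to 22730). Without anti-IL-4Rα replicate 5 the second was 24530 (interval 4402 to 968900), and without replicate 2 of that group 21880 (interval 3927 to 864300). No ratio of pooled counts is given between anti-IL-4Rα and PBS, with 2 and 9 counts, and a fitted value for that comparison rests on them.

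Chil3 was also highest in isotype, at a much lower level. It was counted 5, 0, 1, 0 and 1 times in the PBS replicates and 2, 1, 0, 7 and 1 times in the anti-IL-4Rα replicates. The isotype replicates held 11.2, 197, 108, 52.1 and 114 counts, or 0.225, 2.02, 1.82, 0.908 and 2.06 CPM. All isotype libraries lay above all other libraries, although isotype replicate 1 stood only a little above the 7 counts of anti-IL-4Rα replicate 4. The pooled ratio was 64.3 against PBS (482 against 7 counts, interval 31.0 to 161; edgeR adjusted p = 0.00118). Against anti-IL-4Rα it was 36.4 (482 against 11 counts, interval 20.2 to 73.4; edgeR adjusted p = 0.00369). Without PBS replicate 1 the first ratio was 169.9 (interval 46.8 to 1407), and without anti-IL-4Rα replicate 4 the second was 84.8 (interval 32.9 to 313).

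The Chil3 counts are uncertain because the genes are close copies. Their transcripts are 94.7% identical over aligned bases, and 74 of the 1450 windows of 90 bases in Chil3 occur unchanged in Chil4 and 44 in Gm6522, while 6 windows of Chil4 occur in Gm6522. In isotype libraries the deposited Chil3 counts were not whole numbers (11.2352 and 1182.7648 for Chil3 and Chil4 in replicate 1), yet the sum of both genes was whole to within 0.001 in 5 of 5, as when shared reads are divided between a pair of genes. Chil3 stood at 0.9499, 4.41, 0.592, 1.65 and 1.42% of the Chil4 count in isotype replicates 1 to 5, and isotype replicate 2 had the highest share. Counted as 1 gene, a choice made after seeing the data, the pair changed by 11.04 (SE 0.93) with OVA and -11.14 (SE 0.95) with the antibody on the log2 scale. How much of the Chil3 count came from Chil3 transcripts was not tested.

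**Figure D3:**
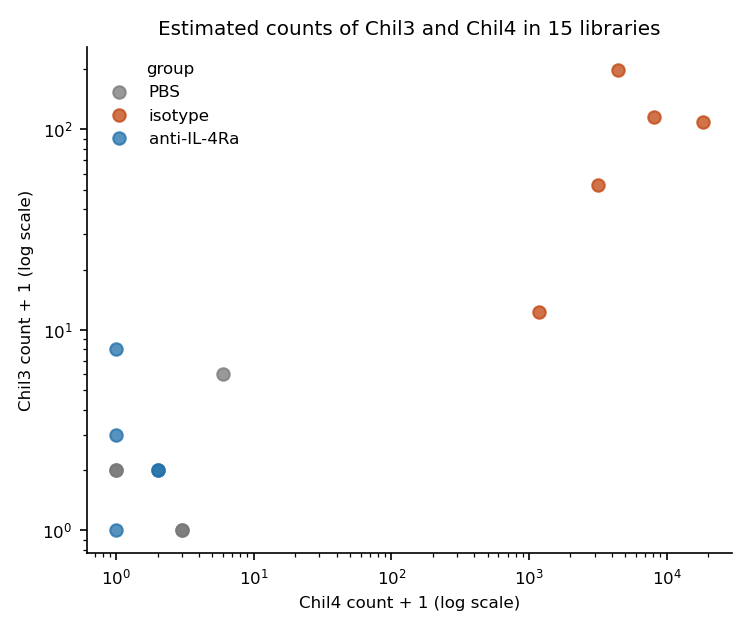
Deposited count of Chil3 (vertical axis) against that of Chil4 (horizontal axis) in the 15 libraries, each plus 1 on log axes, colored by group, with some points of PBS and anti-IL-4Rα on top of each other. In those groups both genes stayed at 7 counts or fewer, and the 5 isotype libraries stood apart at 1183 to 18282 counts of Chil4.

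Promoters with a motif match are shown because IL-4 and IL-13 signal through STAT6, which is known to bind palindromes of the form TTC, a spacer and GAA. RefSeq promoters (GRCm38.p6, 250 bases before to 50 after the start) were available for 7 of the 9 genes, and not for Clec10a and Tgm2. The motifs searched were TTC and GAA separated by 3 bases (TTCNNNGAA) or by 4 bases, both of which read the same on both strands and which cannot begin at the same base. Of the 32851 promoters in the table, 8.30% held the first motif, 6.95% the second and 14.6% either. The 4 promoters with a match were those of Chil3 (chr3:106167515-106167814, minus strand), Chil4 (chr3:106219430-106219729, minus strand), Retnla (chr16:48842359-48842658, plus strand) and Pdcd1lg2 (chr19:29410669-29410968, plus strand), printed 5′ to 3′ with the match in capitals. Chil1, Mgl2 and Ear2 held neither motif in this window.
Chil3: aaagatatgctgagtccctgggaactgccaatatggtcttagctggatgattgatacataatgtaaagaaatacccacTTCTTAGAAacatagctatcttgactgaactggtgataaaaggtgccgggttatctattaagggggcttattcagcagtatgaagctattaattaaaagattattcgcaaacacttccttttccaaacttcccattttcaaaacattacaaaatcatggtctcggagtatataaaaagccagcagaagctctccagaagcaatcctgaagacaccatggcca
Chil4: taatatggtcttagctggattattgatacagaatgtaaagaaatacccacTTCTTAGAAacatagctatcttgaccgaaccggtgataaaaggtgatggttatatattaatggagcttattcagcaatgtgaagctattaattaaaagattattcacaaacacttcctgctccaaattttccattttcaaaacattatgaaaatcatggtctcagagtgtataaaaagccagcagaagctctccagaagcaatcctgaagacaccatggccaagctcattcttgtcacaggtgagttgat
Retnla: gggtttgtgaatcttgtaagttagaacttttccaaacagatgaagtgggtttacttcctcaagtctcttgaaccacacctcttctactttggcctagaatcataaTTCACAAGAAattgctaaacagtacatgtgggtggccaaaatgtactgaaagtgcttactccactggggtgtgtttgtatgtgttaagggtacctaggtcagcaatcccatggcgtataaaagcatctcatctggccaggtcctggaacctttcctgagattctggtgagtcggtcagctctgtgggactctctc
Pdcd1lg2: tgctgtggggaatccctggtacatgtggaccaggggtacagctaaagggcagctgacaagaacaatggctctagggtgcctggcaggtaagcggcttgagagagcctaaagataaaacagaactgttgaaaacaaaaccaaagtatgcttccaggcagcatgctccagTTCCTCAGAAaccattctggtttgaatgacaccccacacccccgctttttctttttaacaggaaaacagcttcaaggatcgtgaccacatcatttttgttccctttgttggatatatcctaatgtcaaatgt

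Chil3 and Chil4 carry the same 9 letters, TTCTTAGAA, beginning 172 and 200 bases before their starts, in promoters that are 93.0% identical over aligned bases. Retnla carries TTCACAAGAA from 145 bases before its start, and Pdcd1lg2 carries TTCCTCAGAA from 82 bases before. A match is a description of the sequence and not evidence of binding in this tissue.

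Chil1 (ENSMUSG00000064246, chr1:134182176-134190181, plus strand) encodes another chitinase-like protein, related to the human glycoprotein made by chondrocytes and neutrophils. Its level was 79.7, 30.5, 41.1, 51.8 and 67.1 CPM in PBS replicates 1 to 5 and 62.3, 61.1, 62.7, 54.7 and 45.2 CPM in isotype. The anti-IL-4Rα replicates held 34.5, 55.3, 34.9, 138 and 21.0 CPM. The 3 groups overlapped, and anti-IL-4Rα replicate 4 held more than any other library. Chil1 did not pass the test with OVA (0.08 on the log2 scale, SE 0.41, adjusted p = 0.915) or with the antibody (-0.01, SE 0.41, adjusted p = 0.988). The second value rested on single libraries for its sign: it was -0.65 (adjusted p = 0.155) when replicate 4 of anti-IL-4Rα was left out and 0.20 (adjusted p = 0.744) when replicate 5 was.

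The wider chitinase family list held 10 genes, of which 7 were tested, and Chil3 and Chil4 were the 2 that rose with OVA and the 2 that fell with the antibody. None of the 7 passed the edgeR test in anti-IL-4Rα against PBS. The median log2 fold change of the family was 0.08 with OVA, -0.01 with the antibody and 0.07 (0.09 with Chil4 at its counting floor) for anti-IL-4Rα against PBS. Chit1, a true chitinase, was the most abundant of the family at 85.5 CPM per kb over all libraries, and it averaged 167 ± 27.4, 159 ± 27.2 and 139 ± 26.4 CPM (SD, n = 5) in PBS, isotype and anti-IL-4Rα. Its adjusted p was 0.767 in isotype against PBS and 0.386 in anti-IL-4Rα against isotype.

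Retnla (ENSMUSG00000061100, chr16:48842551-48844461, plus strand) encodes the secreted resistin-like molecule α. It stood at 22.4, 41.3, 36.2, 33.9 and 29.7 CPM in PBS replicates 1 to 5. In isotype it stood at 77.8, 31.4, 58.7, 108 and 186 CPM. In anti-IL-4Rα it stood at 62.5, 64.8, 81.4, 43.4 and 38.2 CPM. In isotype 4 of 5 libraries lay above every PBS library, and isotype replicate 2 lay among them, while the anti-IL-4Rα libraries overlapped with both groups. Retnla rose with OVA (log2 fold change 1.496, SE 0.37, 2.82-fold, adjusted p = 0.0171). Its difference between anti-IL-4Rα and isotype, -0.67 (SE 0.37), did not pass the test (adjusted p = 0.219), nor did that between anti-IL-4Rα and PBS, 0.83 (adjusted p = 0.195). Over the fits without 1 library, the first of these ranged from -0.89 to -0.25 and was never called. For the rise, a linear model of log2(FPKM + 1) values, the unit tested in the study, gave adjusted p = 0.0571, and a fit with the replicate number as a block gave adjusted p = 0.0603. Relative to the summed macrophage markers the log2 ratio of Retnla differed by 0.68 with OVA and did not pass (exact permutation p = 0.135, adjusted p = 0.2297), nor did it in the other comparisons.

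Among the resistin-like genes 3 of 4 were tested, 2 rose with OVA, 1 fell with the antibody and none passed the edgeR test against PBS under anti-IL-4Rα. Medians of the family were 1.496, -0.67 and 0.83 in those comparisons. Retnlg, a resistin-like gene of neutrophils, rose from 0.423 ± 0.186 CPM in PBS to 4.31 ± 2.70 CPM in isotype (log2 fold change 3.35, adjusted p = 0.00161). Under the antibody Retnlg fell to 1.36 ± 0.754 CPM (log2 fold change -1.64, adjusted p = 0.0332). Retnla was the most abundant gene of the family, at 102 CPM per kb.

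The list of arginine and polyamine metabolism, used by macrophages of both activation states, held 10 genes, all tested. With OVA 2 rose and 1 fell, with the antibody none rose and 2 fell, and in anti-IL-4Rα against PBS 1 was higher and none lower. Its medians were 0.21, 0.07 and 0.12. Nos2, the inducible nitric oxide synthase, rose with OVA by a log2 fold change of 1.65 (adjusted p = 0.0224), and in anti-IL-4Rα it was higher than in PBS by 1.93 (adjusted p = 0.036). Odc1, which makes putrescine from ornithine, rose by 0.60 (adjusted p = 0.0076) and fell with the antibody (log2 fold change -0.39, adjusted p = 0.0495). Ass1, which rebuilds arginine from citrulline, fell with the antibody (log2 fold change -0.58, adjusted p = 0.0213). Sms, spermine synthase, was the gene that fell with OVA (log2 fold change -0.22, adjusted p = 0.0353), and it was named after its values were seen. Oat was the most abundant gene of the list at 78.8 CPM per kb and passed in none of the 3 comparisons.

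Clec10a (ENSMUSG00000000318, chr11:70156197-70170834, plus strand) and Mgl2 (ENSMUSG00000040950, chr11:70130329-70137550, plus strand) encode macrophage galactose-type lectins and lie 18646 bases apart. Clec10a measured 19.99, 22.2, 18.6, 19.3 and 21.9 CPM in PBS replicates 1 to 5. In isotype it measured 24.3, 26.8, 47.8, 38.4 and 46.7 CPM. In anti-IL-4Rα it measured 29.9, 33.2, 39.3, 25.4 and 37.2 CPM. Every challenged library, with or without the antibody, lay above every PBS library, and both challenged groups overlapped. Clec10a rose with OVA (log2 fold change 0.85, SE 0.18, 1.80-fold, adjusted p = 0.00808) and was higher in anti-IL-4Rα than in PBS (0.69, SE 0.18, adjusted p = 0.0473). Between anti-IL-4Rα and isotype it differed by -0.16 (SE 0.18, adjusted p = 0.556). The difference between anti-IL-4Rα and PBS kept its sign and lost its call in 10 of 15 fits without 1 library: any single PBS replicate, replicate 4 of isotype, or replicate 1, 2, 4 or 5 of anti-IL-4Rα (adjusted p of up to 0.101). Of 10 alternative analyses, 3 called it.

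Mgl2 measured 32.6, 28.7, 29.6, 36.4 and 39.9 CPM in PBS replicates 1 to 5, and 32.1, 29.3, 35.9, 36.2 and 52.7 CPM in isotype. In anti-IL-4Rα it measured 23.8, 23.6, 29.4, 26.9 and 23.8 CPM. PBS and isotype overlapped, and in anti-IL-4Rα only replicate 3 reached the lowest isotype library. Mgl2 did not pass the test with OVA (log2 fold change 0.16, SE 0.14, adjusted p = 0.472) and fell with the antibody (log2 fold change -0.55, SE 0.14, adjusted p = 0.0249). That call was lost without replicate 3 of isotype and without replicate 1, 2 or 5 of anti-IL-4Rα, with an adjusted p of up to 0.0612. It was also lost with only the 2 groups compared (adjusted p = 0.0622) and with all genes scaled to the macrophage markers (adjusted p = 0.151). The log2 fold change stayed between -0.63 and -0.38 over the alternatives and between -0.62 and -0.39 over the fits without 1 library.

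These neighbouring lectins thus gave different calls, and their counts are uncertain to an extent that was not measured. Over aligned bases their transcripts are 94.5% identical, 111 windows of 90 bases are shared, and the deposited counts of both genes were not whole in 15 of 15 libraries. Across the 15 libraries their log2 levels had a Pearson r of 0.15, or 0.53 after centring within groups, as a description.

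Relative to the summed macrophage markers, Clec10a passed the test in none of the 3 comparisons. Its log2 ratio to that sum differed by 0.20 with OVA (exact permutation p = 0.0635, adjusted p = 0.143), -0.13 with the antibody (exact permutation p = 0.167, adjusted p = 0.256) and 0.07 between anti-IL-4Rα and PBS (exact permutation p = 0.476, adjusted p = 0.566). For Mgl2 the ratio fell by 0.46 with OVA and by 0.53 with the antibody (each exact permutation p = 0.0159, adjusted p = 0.0455) and was lower in anti-IL-4Rα than in PBS (-0.996, exact permutation p = 0.00794, adjusted p = 0.0294). The sum itself rose by 0.60 with OVA, more than this ratio fell, and by 0.61 in anti-IL-4Rα against PBS. By edgeR, Mgl2 itself differed by 0.16 with OVA (adjusted p = 0.472). In anti-IL-4Rα against PBS it differed by -0.39 and did not pass (edgeR adjusted p = 0.1185). With all genes scaled to the macrophage markers instead, Clec10a was no longer called with OVA (log2 fold change 0.08, adjusted p = 0.548), while Mgl2 turned to -0.59 (adjusted p = 0.000789). That scaling also moved the median log2 fold change of all genes to -0.71 with OVA, 0.14 with the antibody and -0.58 between anti-IL-4Rα and PBS. Both of these values with OVA lay above the shifted median of -0.71.

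Of 13 myeloid C-type lectins, all tested and with both genes among them, 8 rose with OVA and none fell, none rose and 4 fell with the antibody, and 1 was higher in anti-IL-4Rα than in PBS. Medians of the lectins were 0.85, -0.27 and 0.41. The mannose receptor Mrc1 rose from 56.9 ± 4.53 to 152 ± 64.7 CPM (log2 fold change 1.42, adjusted p = 0.00216) and fell to 75.4 ± 9.05 CPM (log2 fold change -1.01, adjusted p = 0.015). Cd209e rose by a log2 fold change of 1.52 (adjusted p = 0.0091) and fell with the antibody (log2 fold change -2.78, adjusted p = 0.000643). Cd209d, the most abundant of the list at 24.01 CPM per kb, rose by 1.14 (adjusted p = 0.00208) and did not pass under the antibody (log2 fold change -0.46, adjusted p = 0.0972).

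Pdcd1lg2 (ENSMUSG00000016498, chr19:29410919-29471161, plus strand) encodes PD-L2, a ligand of the inhibitory receptor PD-1 on T cells. It was sparse, with 14 to 33 counts in PBS libraries, 51 to 236 in isotype and 7 to 26 in anti-IL-4Rα. Its level was 0.454, 0.238, 0.407, 0.516 and 0.5096 CPM in PBS replicates 1 to 5, and 1.04, 2.42, 2.36, 0.961 and 3.50 CPM in isotype. The anti-IL-4Rα replicates held 0.149, 0.392, 0.379, 0.173 and 0.213 CPM. Every isotype library lay above every library of the other groups, and PBS and anti-IL-4Rα overlapped. Pdcd1lg2 rose with OVA (log2 fold change 2.27, SE 0.38, 4.83-fold, adjusted p = 0.00255). It fell with the antibody (log2 fold change -2.93, SE 0.40, 7.60-fold lower, adjusted p = 0.00121), and anti-IL-4Rα against PBS did not pass (log2 fold change -0.65, adjusted p = 0.359). On the log2(FPKM + 1) scale, which compresses low levels, the 2 differences were 0.71 and -0.82 and both were called. Relative to the macrophage markers its log2 ratio rose by 1.46 with OVA, fell by 2.76 with the antibody and differed by -1.29 between anti-IL-4Rα and PBS (each exact permutation p = 0.00794, adjusted p = 0.0294). In anti-IL-4Rα against PBS the marker sum itself rose by 0.61, and Pdcd1lg2 alone did not pass there (edgeR adjusted p = 0.359).

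An antisense gene, A930007I19Rik, overlaps Pdcd1lg2 and held 18 to 76 counts a library, and the deposited files do not say whether counting used the strand, so the pair cannot be fully told apart. Of the 4 genes of the PD-1 list, all tested, Pdcd1lg2 rose and Rgmb fell with OVA, and Pdcd1lg2 was the 1 gene that fell with the antibody. None passed the edgeR test in anti-IL-4Rα against PBS, and the list medians were 0.385, 0.06 and 0.05. Rgmb, a further partner of PD-L2, changed by -0.27 (adjusted p = 0.0047). Cd274, which encodes the other ligand PD-L1, was the most abundant at 10.3 CPM per kb and averaged 34.2 ± 5.88, 37.5 ± 3.63 and 40.5 ± 9.19 CPM in PBS, isotype and anti-IL-4Rα (adjusted p = 0.559 and 0.623 for the first pair of comparisons).

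Ear2 (ENSMUSG00000072596, chr14:44102654-44103534, plus strand) encodes a secreted ribonuclease of the eosinophil-associated family. It was found at 6.96, 5.72, 6.18, 9.73 and 4.97 CPM in PBS replicates 1 to 5, and at 11.8, 10.01, 15.6, 18.5 and 17.7 CPM in isotype. In anti-IL-4Rα it was found at 3.81, 4.15, 4.59, 2.10 and 3.07 CPM. The 3 groups did not overlap: all isotype libraries were above all PBS libraries, and all PBS libraries were above all anti-IL-4Rα libraries. Ear2 rose with OVA (log2 fold change 1.13, SE 0.23, 2.19-fold, adjusted p = 0.0071) and fell with the antibody (log2 fold change -2.05, SE 0.24, 4.13-fold lower, adjusted p = 0.000383). In anti-IL-4Rα it was 1.89-fold lower than in PBS (log2 fold change -0.91, SE 0.23, adjusted p = 0.0472). That last call was lost in 11 of 15 fits without 1 library and held without PBS replicate 5, without replicate 1 or 2 of isotype and without anti-IL-4Rα replicate 3, with an adjusted p of up to 0.103 elsewhere. It held in 4 of 10 alternative analyses and was lost, among others, with a replicate block and with log2(FPKM + 1) values. The 4 include the scaling of all genes to the macrophage markers, under which the median of all genes was -0.58.

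Relative to the macrophage markers the log2 ratio of Ear2 differed by 0.53 with OVA (exact permutation p = 0.0476, adjusted p = 0.12). It fell by 2.07 with the antibody and differed by -1.54 between anti-IL-4Rα and PBS (each exact permutation p = 0.00794, adjusted p = 0.0294). In anti-IL-4Rα against PBS the sum of these markers itself rose by 0.61. With all genes scaled to those markers, the rise of Ear2 with OVA was 0.38 (adjusted p = 0.113). Its counts were not whole in 15 of 15 libraries, and 100 of its 630 windows of 90 bases occur in other genes, 96 of them in Ear10, 14 in Ear-ps2, 11 in Ear1 and 1 in Ear-ps9.

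Among 9 eosinophil-associated and related ribonucleases 6 were tested: with OVA 2 rose and none fell, with the antibody none rose and 5 fell, and in anti-IL-4Rα against PBS 2 were lower. The list medians were 0.32, -1.24 (-1.01 with Ear1 at its counting floor) and -0.11. Rnase2a, another ribonuclease of the eosinophil family, averaged 1.08 ± 0.377 CPM in PBS, 33.1 ± 18.4 in isotype and 1.86 ± 0.770 in anti-IL-4Rα. It rose by a log2 fold change of 4.93 (adjusted p = 9.62e-05) and fell with the antibody (log2 fold change -4.14, adjusted p = 7.88e-05). Ear1 was at 0.170 ± 0.0963 CPM in isotype and 0.0246 ± 0.0134 in anti-IL-4Rα, where it was called lower (adjusted p = 0.00763). Rnase4, the most abundant at 80.6 CPM per kb, fell with the antibody (log2 fold change -0.33, adjusted p = 0.048) and was not called with OVA. Ear14 was listed at 0 in all 15 libraries, and Ear6 and Ear10 had too few counts to test.

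Tgm2 (ENSMUSG00000037820, chr2:158116402-158146436, minus strand) encodes tissue transglutaminase, which crosslinks proteins of the matrix. It was present at 249.5, 352, 435, 286 and 277 CPM in PBS replicates 1 to 5, and at 329, 198, 233, 271 and 346 CPM in isotype. In anti-IL-4Rα it was present at 368, 243, 362, 278 and 216 CPM. The groups overlapped fully, with PBS replicate 3 the highest and isotype replicate 2 the lowest library. Tgm2 did not pass with OVA (log2 fold change -0.22, SE 0.20, adjusted p = 0.479) or with the antibody (0.09, SE 0.20, adjusted p = 0.773). With all genes scaled to the macrophage markers, it was called lower with OVA (-0.91, adjusted p = 0.000991). Under that scaling it was also called lower in anti-IL-4Rα against PBS (-0.71, adjusted p = 0.00711). The medians of all genes then stood at -0.71 and -0.58. The log2 ratio of Tgm2 to the summed macrophage markers was lower in anti-IL-4Rα than in PBS (-0.74, exact permutation p = 0.0159, adjusted p = 0.0455) and did not pass in the other comparisons. In that comparison the sum itself rose by 0.61, and Tgm2 differed by -0.12 and did not pass (edgeR adjusted p = 0.759). Tgm2 overlaps Rprd1b (1676 to 3877 counts) and Gm20412 (1 to 13 counts) on the opposite strand, and 546 of its 3507 windows occur in those genes.

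All 8 transglutaminases of the list were tested: 1 rose with OVA (F13a1, log2 fold change 0.51, adjusted p = 0.0213), and none fell. With the antibody none rose and 2 fell, Tgm3 (log2 fold change -0.83, adjusted p = 0.0168) and Tgm1 (log2 fold change -0.64, adjusted p = 0.0246), which build the cornified envelope of epithelia. None passed the edgeR test in anti-IL-4Rα against PBS, and the list medians were 0.42, -0.39 and -0.15. Tgm2 was the most abundant of them at 64.3 CPM per kb.

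**Figure D4:**
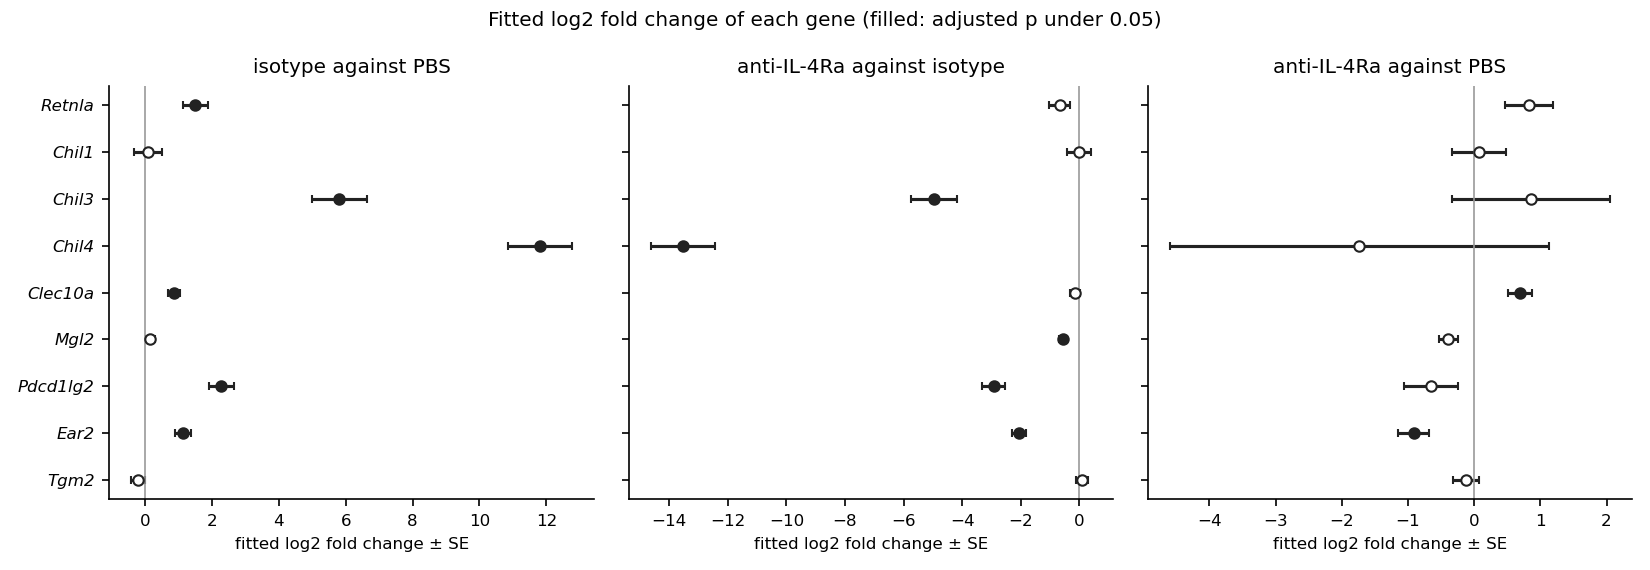
Log2 fold changes (horizontal axis, with its own range in each panel) of the 9 genes in the 3 comparisons, with standard errors from the edgeR fit as bars and called genes filled. Values for Chil3 and Chil4 rest on groups near 0 counts, and their size depends on the small count added in the fit.

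Compared per kilobase of exons, the levels of the 9 genes took different orders in the groups. In PBS the mean levels fell in the order Tgm2 (69.4 ± 16.2 CPM per kb, SD, n = 5), Retnla (54.6 ± 11.9), Chil1 (19.3 ± 7.04), Mgl2 (16.0 ± 2.24), Ear2 (9.33 ± 2.55), Clec10a (7.04 ± 0.548), Pdcd1lg2 (0.217 ± 0.058), Chil3 (0.0128 ± 0.0173) and Chil4 (0.0100 ± 0.0103). Of those neighbours, Tgm2 and Retnla, Chil1 and Mgl2, Ear2 and Clec10a, and Chil3 and Chil4 lay within a standard deviation of each other. In isotype Retnla led at 154 ± 98.8 CPM per kb, followed by Tgm2 (59.8 ± 13.6) and Chil4 (41.1 ± 41.5). Ear2 (20.5 ± 5.12), Chil1 (20.4 ± 2.66), Mgl2 (17.8 ± 4.35) and Clec10a (12.7 ± 3.77) came next, and Pdcd1lg2 (1.05 ± 0.543) and Chil3 (0.861 ± 0.495) last, and neighbours lay within a standard deviation except Mgl2 and Clec10a, and Clec10a and Pdcd1lg2. In anti-IL-4Rα Chil4 was last at 0.00275 ± 0.00391 CPM per kb, below Chil3 (0.0312 ± 0.0429), Pdcd1lg2 (0.133 ± 0.0591) and Ear2 (4.93 ± 1.36). Clec10a (11.4 ± 1.93), Mgl2 (12.2 ± 1.22), Chil1 (20.2 ± 16.8), Tgm2 (63.7 ± 14.98) and Retnla (96.9 ± 29.1) stood above them. Neighbours within a standard deviation there were Chil1 and Mgl2, Mgl2 and Clec10a, and Chil3 and Chil4. Single libraries weigh on 2 of these means: Chil4 in isotype stood at 109 CPM per kb in replicate 3 and at 8.58 to 51.7 in the others, and Chil1 in anti-IL-4Rα at 49.2 in replicate 4 and at 7.50 to 19.7 in the others. The orders also depend on the length: with that of a single transcript of each gene, a choice made after seeing the data, Chil4 had 1539 bases in place of 2817 and Chil1 1839 in place of 2804. In isotype Chil4 then averaged 75.2 CPM per kb, and Chil1 (31.1) and Mgl2 (22.8) came before Ear2 (20.5). In PBS Chil4 (0.0183) then came before Chil3 (0.0135), and the other orders stayed.

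Within the isotype group the genes did not rank the libraries alike. Replicate 3 was the highest for Chil4, Clec10a and Chil1, and replicate 5 for Retnla, Chil3, Mgl2, Pdcd1lg2 and Tgm2. Replicate 1 was the lowest for Chil4, Chil3 and Clec10a. Over the 15 libraries the log2 levels of Chil3 and Chil4 had a Pearson r of 0.92, Chil4 and Pdcd1lg2 0.90, and Pdcd1lg2 and Ear2 0.86. Centred within groups, so that only differences between libraries of a group count, those values were 0.46, 0.43 and 0.29. With the summed macrophage markers Clec10a had the highest r of the 9, 0.95 (0.89 centred), Retnla had 0.72 (0.51 centred) and Chil1 -0.19 (-0.31 centred). Chil4 had 0.42 (0.69 centred), Pdcd1lg2 0.36 (0.65 centred), Ear2 0.17 (0.61 centred) and Mgl2 0.09 (0.597 centred). Centred within groups, these genes came between Clec10a and Retnla. Chil3 had 0.465 (0.23 centred) and Tgm2 -0.09 (0.20 centred). All of these are descriptions over 15 libraries in 3 groups, with no test.

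The genes most like each member, by Pearson r of log2 CPM over the 15 libraries, differed between members. These values include the differences between groups, and r centred within groups is given second. For Clec10a they were Selenop (0.98, 0.96), Cd300ld3 (0.97, 0.93) and the macrophage receptor gene Csf1r (0.96, 0.96). For Chil4 they were Stfa1 (0.98, 0.63), Klk6 (0.98, 0.72) and Jakmip2 (0.98, 0.58), and for Chil3 the cytokine genes Il24 (0.98, 0.89) and Il19 (0.96, 0.81) and the protease inhibitor gene Timp1 (0.95, 0.78). For Pdcd1lg2 they were Map3k14 (0.95, 0.76), Vrk1 (0.95, 0.87) and the matrix gene Postn (0.95, 0.79), and for Ear2 Col6a5 (0.94, 0.46), Gsdmc3 (0.94, 0.68) and Sprr2a2 (0.93, 0.52). For Chil1 they were Sprr2b (0.83, 0.86), S100a8 (0.83, 0.88) and Sprr2d (0.81, 0.86). For Mgl2 they were Ccl11 (0.89, 0.79), Fcgbp (0.87, 0.72) and Adgrb2 (0.86, 0.68). Retnla stood nearest to Gimap4 (0.86, 0.73), Txk (0.85, 0.70) and Msln (0.84, 0.79), and Tgm2 to Wnt2b (0.93, 0.94), Cmah (0.93, 0.93) and Serpinb6b (0.91, 0.93).

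Other genes of alternative activation, 20 in a list that holds none of the 9, were also counted. All 20 were tested: 6 rose and none fell with OVA, none rose and 8 fell with the antibody, and none were higher and 3 lower in anti-IL-4Rα than in PBS. The list medians were 0.05, -0.39 and -0.10. The hemoglobin scavenger receptor Cd163 rose from 31.7 ± 3.21 to 114 ± 58.4 CPM (log2 fold change 1.85, adjusted p = 0.00157). With the antibody Cd163 fell to 47.2 ± 6.79 CPM (log2 fold change -1.27, adjusted p = 0.0133). The transcription factor gene Tfec rose by a log2 fold change of 2.67 (adjusted p = 0.000641) and fell with the antibody (log2 fold change -1.61, adjusted p = 0.00993). Alox15, a lipoxygenase, rose by 2.42 (adjusted p = 0.00208) and fell with the antibody (log2 fold change -2.29, adjusted p = 0.00446). Fibronectin, Fn1, fell with the antibody (log2 fold change -1.09, adjusted p = 0.00184). The chemokine Ccl17 was lower in anti-IL-4Rα than in PBS (log2 fold change -2.10, adjusted p = 0.0255), as were Mmp12 (-1.19, adjusted p = 0.0301) and Egr2 (-0.41, adjusted p = 0.0458). Klf4 was the most abundant of the list at 150.3 CPM per kb and was not called.

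Of 12 genes of IL-4 and IL-13 signaling, 5 rose and 1 fell with OVA, none rose and 5 fell with the antibody, and 2 were lower in anti-IL-4Rα than in PBS. The list medians were 0.26, -0.42 and 0.05. Socs1, a feedback inhibitor of cytokine signaling, rose by a log2 fold change of 0.81 (adjusted p = 0.00647) and fell with the antibody (log2 fold change -0.80, adjusted p = 0.00993). Il13 itself rose by 1.30 (adjusted p = 0.00717) and did not pass under the antibody (log2 fold change -0.70, adjusted p = 0.0811). The decoy receptor gene Il13ra2 fell in all 3 comparisons, by 0.54, 0.78 and 1.32 on the log2 scale (adjusted p = 0.0295, 0.00983 and 0.00262). Cish, a STAT target gene, fell with the antibody (log2 fold change -0.73, adjusted p = 0.00168) and was lower than in PBS (-0.48, adjusted p = 0.0302). Stat6 was the most abundant at 33.7 CPM per kb and was not called. Il4ra, which encodes the target of the antibody and was named after its values were seen, rose with OVA (log2 fold change 0.74, adjusted p = 0.0342) and fell with the antibody (log2 fold change -1.06, adjusted p = 0.0119).

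Of 12 genes of classical activation, the state induced by interferon and bacterial products, 6 rose and 1 fell with OVA, 1 rose and 3 fell with the antibody, and 1 was higher in anti-IL-4Rα than in PBS. The list medians were 1.40, -0.15 and 0.90. The cytokine gene Il6 rose by a log2 fold change of 4.04 (adjusted p = 0.00108) and fell with the antibody (log2 fold change -2.29, adjusted p = 0.0141). Il1b rose by 2.02 (adjusted p = 0.00547) and fell with the antibody (log2 fold change -1.81, adjusted p = 0.013). Cxcl10 rose by 2.32 (adjusted p = 0.0125), and Ptgs2 fell with the antibody (log2 fold change -2.12, adjusted p = 0.0137). Tnf was the most abundant of the list at 8.43 CPM per kb. Nos2 was the 1 gene higher than in PBS under the antibody, and Il12a, which was named after its values were seen, was the 1 that fell with OVA (log2 fold change -1.11, adjusted p = 0.0142) and rose with the antibody (1.02, adjusted p = 0.0271).

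**Figure D5:**
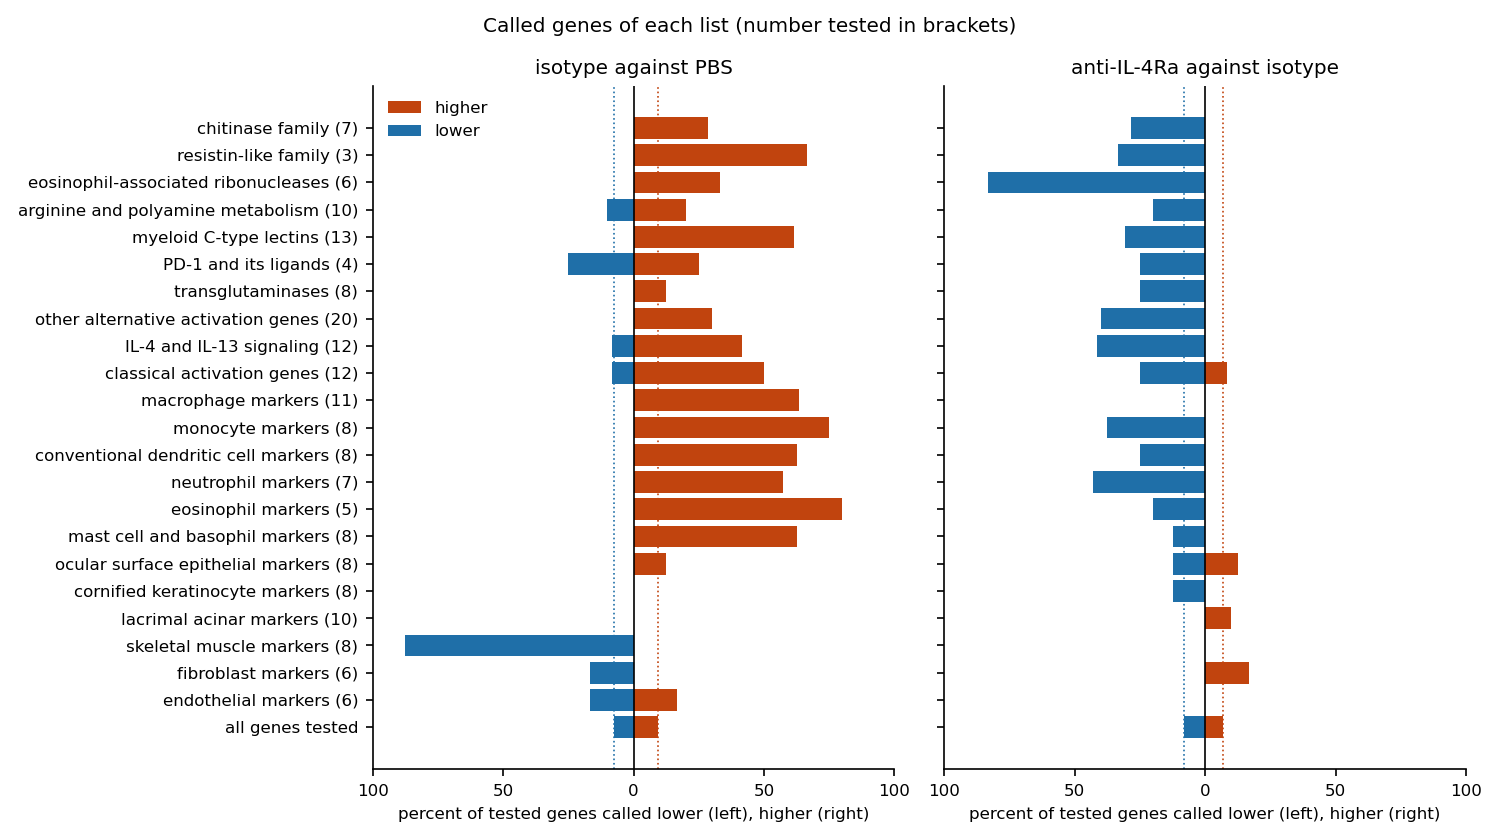
Percent of the tested genes of each list (number in brackets) called higher (to the right) or lower (to the left) in isotype against PBS and in anti-IL-4Rα against isotype, with the same percentages over all genes as dotted lines. Of the 20 other alternative activation genes, 6 were higher in the first comparison and 8 lower in the second.

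Markers of leukocytes moved with several members. Of the 11 macrophage markers 7 rose with OVA and none fell, none passed the edgeR test with the antibody, and 5 were higher in anti-IL-4Rα than in PBS and none lower, with list medians of 0.75, -0.31 and 0.67. With the antibody 2 of the 11 were lower and 1 was higher at an unadjusted p under 0.05, the latter also by DESeq2. C1qb rose by a log2 fold change of 1.20 (adjusted p = 0.00103) and was higher than in PBS under the antibody by 0.79 (adjusted p = 0.0289). Of 8 monocyte markers 6 rose, 3 fell with the antibody and 3 were higher than in PBS under it, and none went the other way (medians 1.27, -0.54 and 0.68). Their summed level was 59.1 to 78.8 CPM in PBS, 96.9 to 164 in isotype and 77.7 to 131 in anti-IL-4Rα, and Plac8 was the most abundant at 26.4 CPM per kb. Of 8 conventional dendritic cell markers 5 rose, 2 fell with the antibody and none passed the edgeR test against PBS under it (medians 0.74, -0.40 and 0.28). Their sum was 39.0 to 51.1, 54.3 to 102 and 40.8 to 74.0 CPM in PBS, isotype and anti-IL-4Rα, and Cd209a led at 10.7 CPM per kb. The part of these cells in the results for the 9 genes was not tested.

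Of 8 eosinophil markers 5 were tested, and the granule genes, which were not tested, were near 0. Prg2 had at most 12 counts, Epx at most 3 and Ear6 at most 4 in any library. These low counts do not measure how many eosinophils were present, and the study's histology found more eosinophils in conjunctiva of OVA-challenged mice. With OVA 4 rose and none fell, with the antibody 1 fell (Alox15), and 1 was higher than in PBS under it (Ccr3, log2 fold change 1.63, adjusted p = 0.0309), with medians of 1.61, -0.19 and 1.11. The summed eosinophil markers were 26.7 to 51.3 CPM in PBS, 87.3 to 299.6 in isotype and 26.8 to 81.8 in anti-IL-4Rα, and Alox15 made up most of that sum, at 33.6 CPM per kb over all libraries. Ear2 and Rnase2a fell with the antibody, while Siglecf, a surface marker of eosinophils, rose with OVA from 1.01 ± 0.159 to 2.87 ± 1.28 CPM and was 2.61 ± 1.49 CPM under the antibody (adjusted p = 0.833 against isotype). The part of eosinophils in the result for Ear2 was not tested.

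Of 9 neutrophil markers 7 were tested, with 4 higher with OVA, 3 lower with the antibody and none called by edgeR in anti-IL-4Rα against PBS (medians 1.10, -1.16 and 0.10). Camp had at most 10 counts and Ngp at most 3. The summed level was 307 to 537 CPM in PBS, 369.8 to 583 in isotype and 472.5 to 713 in anti-IL-4Rα, and most of it was Ltf (127 CPM per kb), which glands of the eye also make and which averaged 407, 380.1 and 528 CPM of summed means of 448, 471 and 573 CPM in PBS, isotype and anti-IL-4Rα. Csf3r rose by a log2 fold change of 2.11 (adjusted p = 0.000596) and fell with the antibody (log2 fold change -1.53, adjusted p = 0.00479). Of 8 mast cell and basophil markers 5 rose, 1 fell with the antibody and 2 were higher than in PBS under it (medians 0.73, -0.47 and 0.27). Their sum was 134 to 183 CPM in PBS, 151 to 265 in isotype and 147 to 195 in anti-IL-4Rα, with Mcpt4 the most abundant at 38.8 CPM per kb. The basophil protease gene Mcpt8 averaged 0.0375 ± 0.0290 CPM in PBS, 2.63 ± 2.18 in isotype and 0.774 ± 0.327 in anti-IL-4Rα. It was called in all 3 comparisons (log2 fold changes 6.06, -1.74 and 4.32, adjusted p = 0.000409, 0.0384 and 0.0147).

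Epithelial, glandular and connective tissue markers were counted in the same way. Of 8 ocular surface epithelial markers 1 rose with OVA (Krt14, log2 fold change 0.55, adjusted p = 0.00694). With the antibody 1 of the 8 rose (Pax6) and 1 fell (Krt14), and none passed the edgeR test in anti-IL-4Rα against PBS (medians -0.02, -0.23 and -0.18). Their sum was 11580 to 14790 CPM in PBS, 12920 to 17320 in isotype and 10070 to 14130 in anti-IL-4Rα, and it was lower in anti-IL-4Rα than in isotype by a log2 difference of -0.38 (exact permutation p = 0.0159, adjusted p = 0.0455). Of 8 cornified keratinocyte markers none passed the edgeR test with OVA, 1 fell with the antibody (Ivl) and none passed in anti-IL-4Rα against PBS, where 5 were lower at an unadjusted p under 0.05 and 2 by DESeq2 (medians -0.15, -0.26 and -0.36), and the most abundant was Krt10 at 2791 CPM per kb. Their sum was 16830 to 25060, 16580 to 22770 and 12670 to 19220 CPM.

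The lacrimal acinar markers varied widely between libraries of the same group. Their sum was 135, 4890, 230, 10000 and 70370 CPM in PBS replicates 1 to 5, and 44240, 167, 8657, 38530 and 6004 CPM in isotype. In anti-IL-4Rα it was 160600, 83500, 1756, 213700 and 205100 CPM. Most anti-IL-4Rα libraries thus held more gland RNA than most others, and the groups overlapped. Obp1a was the most abundant at 23210 CPM per kb. Of the 10 markers none passed the edgeR test with OVA, and Aqp5 was the 1 gene higher under the antibody, both against isotype (log2 fold change 0.48, adjusted p = 0.0444) and against PBS (0.61, adjusted p = 0.0398), with list medians of 0.22, 2.70 and 2.93. Without the 3 libraries poorest in these markers (PBS replicates 1 and 3 and isotype replicate 2, a choice made after seeing the data), 6 members were called with OVA and 5 with the antibody, as with all libraries. No member was then called in anti-IL-4Rα against PBS.

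Of 8 skeletal muscle markers 7 fell with OVA, none rose, and none passed the edgeR test in the other comparisons, although 6 were lower at an unadjusted p under 0.05 and 1 by DESeq2 in anti-IL-4Rα against PBS (medians -0.78, 0.31 and -0.49). With the antibody, 2 of these markers were higher at an unadjusted p under 0.05 and 1 by DESeq2. Their sum was 5981 to 10370 CPM in PBS, 3578 to 5413 in isotype and 4723 to 7035 in anti-IL-4Rα, and the difference between isotype and PBS was -0.69 (exact permutation p = 0.00794, adjusted p = 0.0294). Pvalb fell by 0.98 on the log2 scale (adjusted p = 0.00464), and Acta1 was the most abundant at 1023 CPM per kb. Of 6 fibroblast markers Dcn was the 1 that fell with OVA and the 1 that rose with the antibody, with no call against PBS under it (medians 0.10, -0.05 and 0.04). Their sum was 3512 to 4398, 3391 to 6389 and 3665 to 5722 CPM, led by Col1a1 at 219 CPM per kb. Of 6 endothelial markers 1 rose (Pecam1) and 1 fell (Cldn5) with OVA and none passed the edgeR test elsewhere (medians -0.08, -0.00 and -0.05). Their sum was 157 to 233 CPM in PBS, 157 to 219 in isotype and 157 to 217 in anti-IL-4Rα, with Pecam1 the most abundant at 8.27 CPM per kb. Beyond the sums of macrophage, epithelial and muscle markers, the summed levels that passed the exact test were those of monocyte markers (0.89 with OVA and 0.56 in anti-IL-4Rα against PBS), dendritic cell markers (0.63 with OVA) and eosinophil markers (2.16 with OVA and -1.93 with the antibody), each with an adjusted p of 0.0455 or less. Alox15 made up most of the eosinophil sum, and the median of the eosinophil markers with the antibody was -0.19. The part of these tissues in the results for the 9 genes was not tested.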

How the data were processed

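The members and lists were chosen with earlier results of these data known. The authors aligned read pairs of 15 stranded poly(A) libraries in Omicsoft Array Studio to the B38 genome with Ensembl.R100 gene models and deposited expected counts per gene; their tool version and use of strand are not stated. Here the deposited counts were rounded, scaled by TMM and tested with edgeR 4.0.16 (quasi-likelihood, 3 groups in 1 model, R 4.3.3) on the 19006 genes that reached 10 counts in 5 or more libraries. Benjamini-Hochberg adjustment covered all of them. Log2 CPM used a prior count of 2. The code was tested on simulated data. Symbols, positions and lengths (all exons of a gene merged) came from GENCODE M21, which matched 55227 of 55487 IDs. Alternatives used DESeq2 1.42.0, limma 3.58.1, other filters and scalings, and fits without each library. The study's methods mention 2 outliers that the labels do not identify, and all 15 libraries were kept. The 22 lists comprise 10 by role and 12 of cell type markers, with 194 genes, 6 of them on more than 1 list. All 9 members described were named, and of each list its most abundant gene and up to 3 called genes with the lowest adjusted p in each comparison. A further gene of the member list, a planned macrophage marker and a gene of another list are not reported here, and all counts, sums and scalings were made without them after the data had been seen.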

Additional observations from a re-analysis of the deposited data

Results flagged for a closer look

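In 6 of the 93 groups of 5 libraries examined, a single library lay far from the nearest of the others relative to the range of its group. For normally distributed values chance alone gives this in about 1 group in 20. These were CPM values without a log scale, some near 0 counts, and members are also part of list sums. That rate therefore need not hold here. Chil3 stood at 0.0687 CPM (5 counts) in PBS replicate 1. Chil3 also stood at 0.173 CPM (7 counts) in anti-IL-4Rα replicate 4. The summed chitinase family reached 342 CPM in anti-IL-4Rα replicate 4, the library with the highest Chil1. The summed eosinophil-associated ribonucleases were low in PBS replicate 3, at 131 CPM. The summed cornified keratinocyte markers were high in isotype replicate 3, at 22770 CPM. The summed lacrimal acinar markers were high in PBS replicate 5, at 70370 CPM.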

How the results depend on the processing

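Chil3, Chil4, Pdcd1lg2 and Ear2 were called lower in anti-IL-4Rα against isotype in 10 of 10 alternatives and in 15 of 15 fits without 1 library. Chil3, Chil4 and Pdcd1lg2 were called higher in isotype against PBS in the same 10 and 15. Retnla, Ear2 and Clec10a were called there in 8, 9 and 9 of the 10 and in 15 of 15. The fits without 1 library kept the 19006 genes selected with all 15 libraries. Without any 1 isotype library Chil3 and Chil4 would miss the minimum of 10 counts in 5 libraries. For these genes the calls without an isotype library thus still depend on the library left out. Against PBS, anti-IL-4Rα gave a call for Clec10a in 3 and for Ear2 in 4 of the 10. Depth limited Chil3 and Chil4 in PBS and anti-IL-4Rα, where 0 to 7 counts a library leave no usable fold between those groups. Where a value below differs, the cause was not tested. Counts of all genes called moved most: for isotype against PBS (3235 as reported) to 15575 scaled to the macrophage markers and 1422 with the lacrimal-poor libraries left out, an alternative chosen after seeing the data. For anti-IL-4Rα against isotype (2826) they were 1749 with no filter on low counts, 677 with only the 2 groups compared, 810 with the lacrimal acinar score as a covariate, 204 scaled to the macrophage markers and 777 without the lacrimal-poor libraries. For anti-IL-4Rα against PBS (707) they were 1966 with DESeq2, 293 in the linear model on log2(FPKM + 1), 327 with no filter, 84 with the lacrimal covariate, 13668 scaled to the macrophage markers and 25 without the lacrimal-poor libraries. Members called in that comparison (2) were 1 with upper quartile factors or with only the 2 groups compared, 0 in the FPKM model, with no filter, with the lacrimal covariate and without the lacrimal-poor libraries, and 4 scaled to the macrophage markers. With a replicate block, which assumes that libraries of the same number belong together, all genes called were 2115, 1859 and 312, members called in anti-IL-4Rα against PBS were 0, and Chil1 there was -0.13. Retnla was not called in isotype against PBS in the FPKM model or with the replicate block (adjusted p = 0.0571 and 0.0603). Mgl2 in anti-IL-4Rα against isotype lost its call with only the 2 groups compared and scaled to the macrophage markers (adjusted p = 0.0622 and 0.151).

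Signs turned under scaling to the macrophage markers for isotype against PBS in Chil1 (-0.60) and Mgl2 (-0.59), for anti-IL-4Rα against isotype in Chil1 (0.15) and Clec10a (0.03), and for anti-IL-4Rα against PBS in Chil1 (-0.45). That scaling shifts all genes together, with medians over all genes of -0.71, 0.14 and -0.58 in the 3 comparisons, so values near 0 turn with it, and the values for isotype against PBS and anti-IL-4Rα against PBS lie above the shifted medians. Without the lacrimal-poor libraries Chil1 (0.01) and Tgm2 (-0.01) turned in anti-IL-4Rα against isotype, and in the FPKM model Chil1 turned against PBS (-0.18). Over the fits without 1 library, all genes called ranged from 1889 to 3959 for isotype against PBS, 895 to 4203 for anti-IL-4Rα against isotype and 83 to 2015 for anti-IL-4Rα against PBS, with 0 to 2 members called in the last. In those fits Chil1 ranged from -0.07 to 0.26, from -0.65 to 0.20 and from -0.57 to 0.28 in the 3 comparisons in that order. Mgl2 ranged from 0.00 to 0.23 in isotype against PBS, Tgm2 from -0.01 to 0.19 against isotype and from -0.22 to 0.01 against PBS, Chil3 from -0.31 to 2.05 in anti-IL-4Rα against PBS (11 against 7 pooled counts, too few to read as a fold), and the summed macrophage markers (0.01 as reported) from -0.10 to 0.12 in anti-IL-4Rα against isotype. As a mean of log2 levels in place of a sum those markers gave -0.15 there.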
